A study of Mus musculus with 9 samples.

Results

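The brake on the cell cycle of B cells was followed in the 10 genes of the cyclin-dependent kinase (CDK) inhibitors *Cdkn1a*, *Cdkn1b*, *Cdkn2c* and *Cdkn2d*, the retinoblastoma (RB) family *Rb1*, *Rbl1* and *Rbl2*, and the E2F activators *E2f1*, *E2f2* and *E2f3*. They were taken by gene symbol from the 17596 genes of the deposited expression table, and all 10 passed the filter on low values (a mean of at least 1 FPKM), as did 10823 genes in all. Splenic B cells came from mice of 6 to 8 weeks. The control was the *Mb1*Cre strain, in which the *Mb1* locus drives the Cre recombinase from early B cell development onward. In Mct1f/f Mb1Cre mice (Mctf/fMb1Cre in the sample labels) the same Cre deletes a floxed segment of *Mct1*, the monocarboxylate transporter listed under its symbol *Slc16a1*, so both genotypes carried the Cre allele. Naive B cells were taken on day 0 (2 libraries for each genotype), and activated B cells after 3 days of culture with 10 μg/ml lipopolysaccharide (LPS) and 50 ng/ml interleukin 4 (IL-4), with 2 *Mb1*Cre and 3 Mct1f/f Mb1Cre libraries. The stimulus induces proliferation and class switch recombination, and the study examined how *Mct1* deficiency changes gene expression before and after it.

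Entry into the cell cycle is controlled by the phosphorylation of RB proteins. The CDK inhibitors hold back the cyclin-CDK complexes that phosphorylate them: p21 (*Cdkn1a*) and p27 (*Cdkn1b*) of the CIP/KIP family bind cyclin-CDK complexes, and p18 (*Cdkn2c*) and p19 (*Cdkn2d*) of the INK4 family bind CDK4 and CDK6. Unphosphorylated RB proteins bind E2F factors and keep genes of DNA replication silent, and p130 (*Rbl2*), with E2F4 and the MuvB proteins, forms the DREAM complex of quiescent cells. Naive B cells are quiescent and are known for high p27 and p130.

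The E2F site is a sequence that links some of the members to each other, since the promoters of *Rbl1* and of *E2f3* are themselves among the E2F targets. Promoters (250 bases before to 50 bases after an annotated start) were taken from RefSeq, build GRCm38.p6, and 9 of the 10 genes had 13 entries. The E2F words TTTCGCGC, TTTGGCGC, TTTCCCGC and TTTGCCGC were searched on both strands and were found in 2.26% of all 32851 mouse promoters of this length. Among the members they were found in 1 promoter each of *Rbl1*, *E2f2* and *E2f3*. The *E2f1* window (chr2:154569377-154569676) held none. It lies inside the annotated gene (154559407 to 154569892, reverse strand), so the bases before that annotated start were not searched. The match lay 18 to 11 bases before the start of *Rbl1* and 11 to 4 bases before the first of the start sites of *E2f3*, and for *E2f2* it lay 39 to 46 bases after the start. The 150 bases before the start are shown for the *Rbl1* and *E2f3* promoters, whose match is before the start, 5′ to 3′ on the reverse strand, with the E2F word in capitals (chr2:157204535-157204684 for *Rbl1* and chr13:29986064-29986213 for *E2f3*).
Rbl1: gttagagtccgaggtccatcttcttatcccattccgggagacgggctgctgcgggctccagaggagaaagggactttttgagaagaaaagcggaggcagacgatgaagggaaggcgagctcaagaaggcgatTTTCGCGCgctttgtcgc
E2f3: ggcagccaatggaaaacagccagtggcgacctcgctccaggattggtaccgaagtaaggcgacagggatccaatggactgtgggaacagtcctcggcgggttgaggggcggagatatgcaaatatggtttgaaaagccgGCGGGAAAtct
The cell cycle homology words TTTGAA and TTCGAA, to which MuvB complexes bind, were found in 19.2% of all promoters and in 1 promoter each of *Rbl2*, *E2f2* and *E2f3*. In *E2f3* the word lay 23 to 18 bases before the start, beside the E2F word and not overlapping it. The FOXO word TGTTTAC, found in 3.65% of all promoters, was in none of the 13 entries. These matches describe letters and not binding.

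Before the members, the libraries were checked. *Slc16a1* had 22.58 and 22.95 FPKM in the *Mb1*Cre libraries of day 3 and 10.82, 9.81 and 9.50 FPKM in the Mct1f/f Mb1Cre libraries, whereas the naive libraries held 4.33 and 3.80 against 3.71 and 4.06 FPKM, so on day 0 the genotype rests on the labels. All 6 B cell markers were detected, with sums of 4183 to 4612 FPKM on day 0 and 2182 to 2271 FPKM on day 3. The 8 myeloid markers summed to 1006 to 1780 FPKM on day 0 and 15.8 to 26.6 FPKM on day 3, and each of the 8 fell in both genotypes. The 8 erythroid markers summed to 126 to 232 against 4.38 to 8.04 FPKM (3 of the 4 tested fell in *Mb1*Cre and 4 of 4 in Mct1f/f Mb1Cre B cells), and the 8 T and NK cell markers to 58.8 to 71.0 against 6.54 to 8.41 FPKM (7 of 7 tested fell). The sum of 4 Y-linked genes was 2.23 to 3.29 FPKM in the *Mb1*Cre libraries of day 0, 112.4 and 3.55 FPKM in the first and second Mct1f/f Mb1Cre libraries of day 0, and 74.0 to 95.0 FPKM in all libraries of day 3. In *Mb1*Cre B cells the day and the sex of the mice therefore cannot be told apart. In Mct1f/f Mb1Cre B cells the log2 fold changes of the 10 genes with activation are also given without the second day 0 library, which leaves only libraries with Y-linked transcripts. It also leaves 1 day 0 library, the one with the highest myeloid (1780 FPKM) and erythroid (232 FPKM) sums. For day 0 these values therefore rest on that library.

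Activation changed the order of the inhibitors and of the RB genes and, in the control, brought *E2f1* into the range of *E2f2*. In *Mb1*Cre B cells all 10 genes passed the test (a limma adjusted p under 0.05 together with a log2 fold change beyond 0.5 in either direction). *Cdkn1a*, *Cdkn2c*, *Rbl1*, *E2f1* and *E2f3* rose, and *Cdkn1b*, *Cdkn2d*, *Rb1*, *Rbl2* and *E2f2* fell. Among all tested genes 24.8% rose and 33.0% fell in the same comparison, so most genes changed. In Mct1f/f Mb1Cre B cells 7 of the 10 passed, 4 higher (*Cdkn1a*, *Rbl1*, *E2f1*, *E2f3*) and 3 lower (*Cdkn1b*, *Rb1*, *Rbl2*), against 23.4% and 33.2% of all genes, and the 3 others had an adjusted p under 0.05 and a smaller fold change. Without the second Mct1f/f Mb1Cre library of day 0 the log2 fold changes of these 3 were 0.64 for *Cdkn2c*, -0.27 for *Cdkn2d* and -0.36 for *E2f2*. In both genotypes the libraries of day 3 lay outside the range of day 0 in all 10 genes, as they did in 91.9% (*Mb1*Cre) and 89.8% (Mct1f/f Mb1Cre) of all tested genes. The median log2 fold change of the 10 genes was -0.01 in *Mb1*Cre and 0.08 in Mct1f/f Mb1Cre B cells, beside -0.12 and -0.14 for all genes. Calls near the limit depended on the scaling and the pseudocount. With every library scaled to an equal total, *Rbl1* (0.34) and *E2f3* (0.47) in the control and *Rbl1* (0.48) in Mct1f/f Mb1Cre B cells lost the limit, while *E2f2* (-0.62) in the latter passed it. In the control, *Cdkn2d* lost it with median-of-ratios scaling (-0.34), and *Cdkn2d* (-0.46), *Rbl1* (0.42) and *E2f3* (0.42) lost it with a pseudocount of 5. *Cdkn2c* in Mct1f/f Mb1Cre B cells passed it with median-of-ratios scaling (0.64) and quantile normalization (0.68). In these bulk libraries fewer cells of a type and less RNA per cell cannot be told apart.

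**Figure D1:**
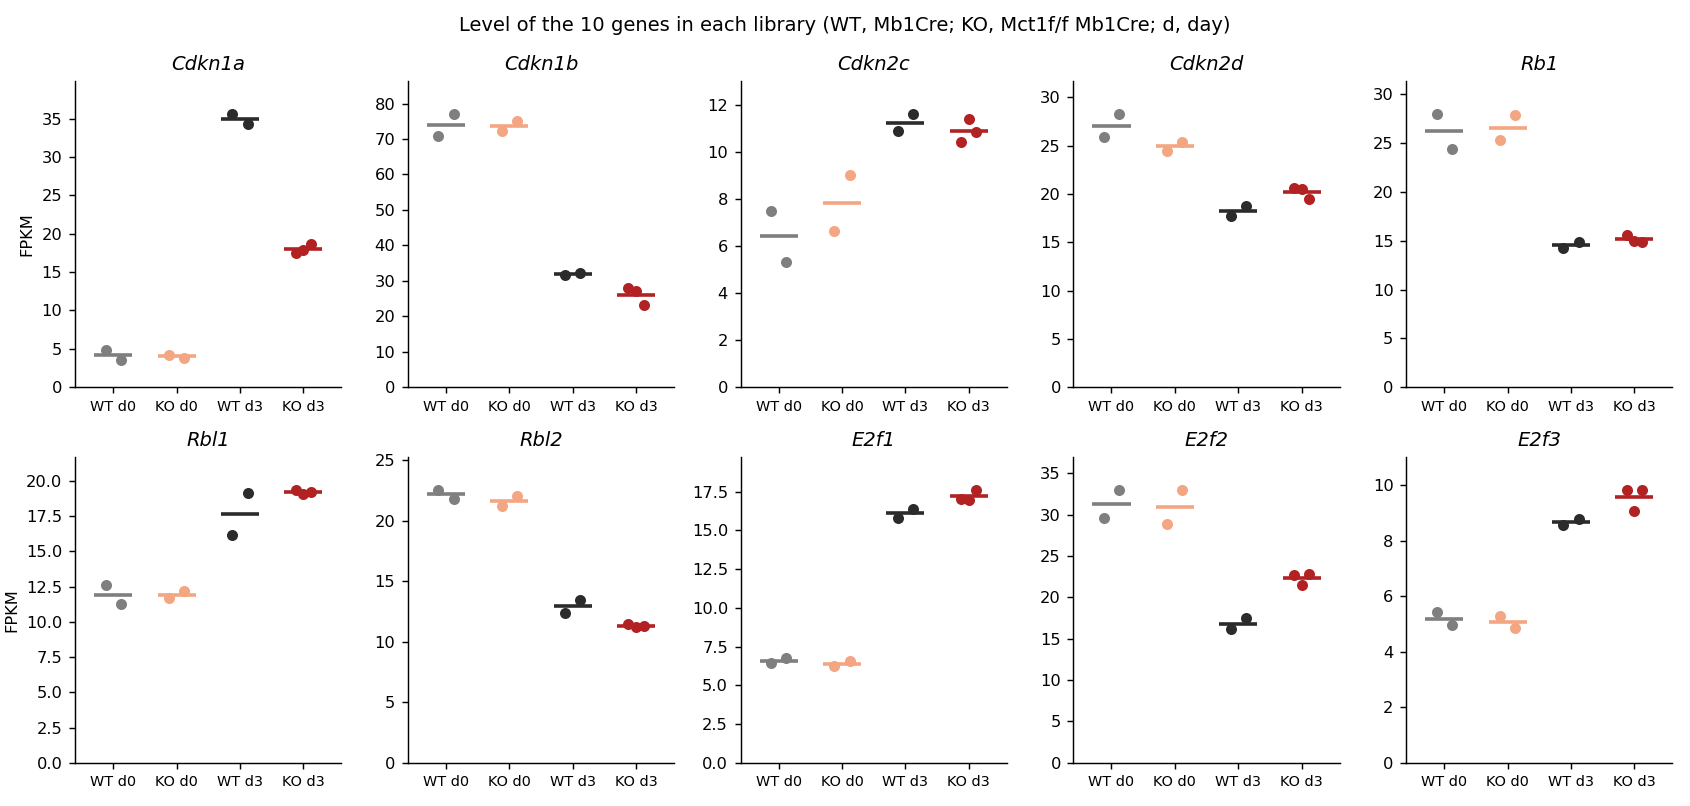
Level of each of the 10 genes in FPKM (vertical axes, from 0) in the 9 libraries, by genotype and day. Points are libraries and lines are group means. On day 3 the *Cdkn1a* level of the Mct1f/f Mb1Cre libraries (17.50 to 18.63 FPKM) lies below both *Mb1*Cre libraries (34.36 and 35.64 FPKM), while on day 0 the genotypes overlap.

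*Cdkn1a* (chromosome 17, 29090976 to 29100727, forward strand, GENCODE annotation of GRCm38) encodes p21, which binds CDK2 complexes and PCNA and is a target of p53. It had 4.88 and 3.56 FPKM in naive *Mb1*Cre B cells and 35.64 and 34.36 FPKM after activation. The *Mct1*-deficient libraries held 4.22 and 3.81 FPKM when naive and 17.50, 17.88 and 18.63 FPKM when activated. It was thus the lowest of the 10 genes in naive cells of either genotype and the highest of them on day 3 in the control, where all libraries of day 3 were far above those of day 0. The mean rose 8.29-fold in *Mb1*Cre B cells, from 4.22 ± 0.933 to 35.0 ± 0.905 FPKM (SD, n = 2 each), a log2 fold change of 2.80 (SE 0.10, limma adjusted p = 4.27e-10). The *Mct1*-deficient mean rose 4.48-fold, to 18.0 ± 0.575 FPKM (SD, n = 3), a log2 fold change of 1.92 (SE 0.09, limma adjusted p = 3.87e-09), or 1.86 without the second day 0 library. All fold changes on the log2 scale are of FPKM + 1, which understates the change of low genes. An annotated gene on the opposite strand shares 273 exon bases with *Cdkn1a*, and whether the counting used strand is not given in the sources used here.

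*Cdkn1b* (chromosome 6, 134920401 to 134925513, forward strand) encodes p27, the inhibitor that accumulates in resting lymphocytes and is degraded on entry into the cycle. It had 70.75 and 77.12 FPKM in naive *Mb1*Cre B cells and 31.71 and 32.10 FPKM after activation. The values of Mct1f/f Mb1Cre B cells were 72.15 and 75.16 FPKM when naive and 28.09, 27.14 and 23.13 FPKM when activated. The naive libraries of both genotypes overlapped, and every library of day 3 was below every naive library. In *Mb1*Cre B cells the level fell to 43.2% of day 0 (log2 fold change -1.19, SE 0.08, limma adjusted p = 7.88e-08). The *Mct1*-deficient level fell to 35.5% (log2 fold change -1.47, SE 0.07, limma adjusted p = 5.46e-09), and the log2 fold change was -1.44 without the second day 0 library.

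*Cdkn2c* (chromosome 4, 109660876 to 109667189, reverse strand) encodes p18, an INK4 inhibitor known for its part in plasma cell differentiation. It had 7.50 and 5.32 FPKM in naive and 10.87 and 11.61 FPKM in activated *Mb1*Cre B cells. Naive Mct1f/f Mb1Cre B cells had 6.63 and 8.99 FPKM, and activated ones 10.40, 11.38 and 10.83 FPKM. For its level it was the most spread member in the naive control libraries, with an SD of 1.54 FPKM around a mean of 6.41 FPKM in the control. It rose 1.75-fold in the control (log2 fold change 0.74, SE 0.14, limma adjusted p = 0.000468). Its log2 fold change in Mct1f/f Mb1Cre B cells was 0.44 (SE 0.13, limma adjusted p = 0.00735), under the limit of 0.5. It passed that limit without the second day 0 library, at 0.64 (limma adjusted p = 0.00114), and without the first it was 0.25 (limma adjusted p = 0.108).

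*Cdkn2d* (chromosome 9, 21288410 to 21291407, reverse strand) encodes p19, the other INK4 inhibitor of the set. Its values were 25.87 and 28.30 FPKM in naive and 17.70 and 18.77 FPKM in activated *Mb1*Cre B cells, and 24.47 and 25.40 FPKM and then 20.67, 20.51 and 19.43 FPKM in Mct1f/f Mb1Cre B cells. The Mct1f/f Mb1Cre libraries were below the control on day 0 and above it on day 3, with no overlap on either day. In the control it fell to 67.3% of day 0 (log2 fold change -0.55, SE 0.06, limma adjusted p = 4.75e-06). Without the second *Mb1*Cre library of day 0 that log2 fold change was -0.48 and no longer past the limit. It had a log2 fold change of -0.29 in *Mct1*-deficient B cells (SE 0.05, limma adjusted p = 0.000366), or -0.27 without the second day 0 library. The latter change lost its adjusted p under median-of-ratios scaling, at -0.08 (limma adjusted p = 0.22).

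FPKM values are per length of transcript, so levels of the inhibitors can be set side by side. *Cdkn1b* made up 66.2% ± 1.81 (SD, n = 2) of the summed FPKM of the 4 inhibitors in naive *Mb1*Cre B cells and *Cdkn1a* 3.80% ± 0.963. On day 3 the shares were 33.1% ± 0.0627 and 36.3% ± 1.18, so that the genes of p21 and p27 stood near each other in activated control cells. In Mct1f/f Mb1Cre B cells on day 3 *Cdkn1a* held 24.0% ± 1.65 and *Cdkn1b* 34.7% ± 2.32 (SD, n = 3), and *Cdkn2d* held 26.9% ± 0.175 against 18.9% ± 0.657 in the control. The summed level of the 4 inhibitors was 109.0 to 114.3 FPKM in naive *Mb1*Cre and 107.5 to 113.4 FPKM in naive Mct1f/f Mb1Cre B cells. On day 3 it was 95.9 to 96.8 FPKM in the control and 72.0 to 76.9 FPKM in *Mct1*-deficient cells.

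**Figure D2:**
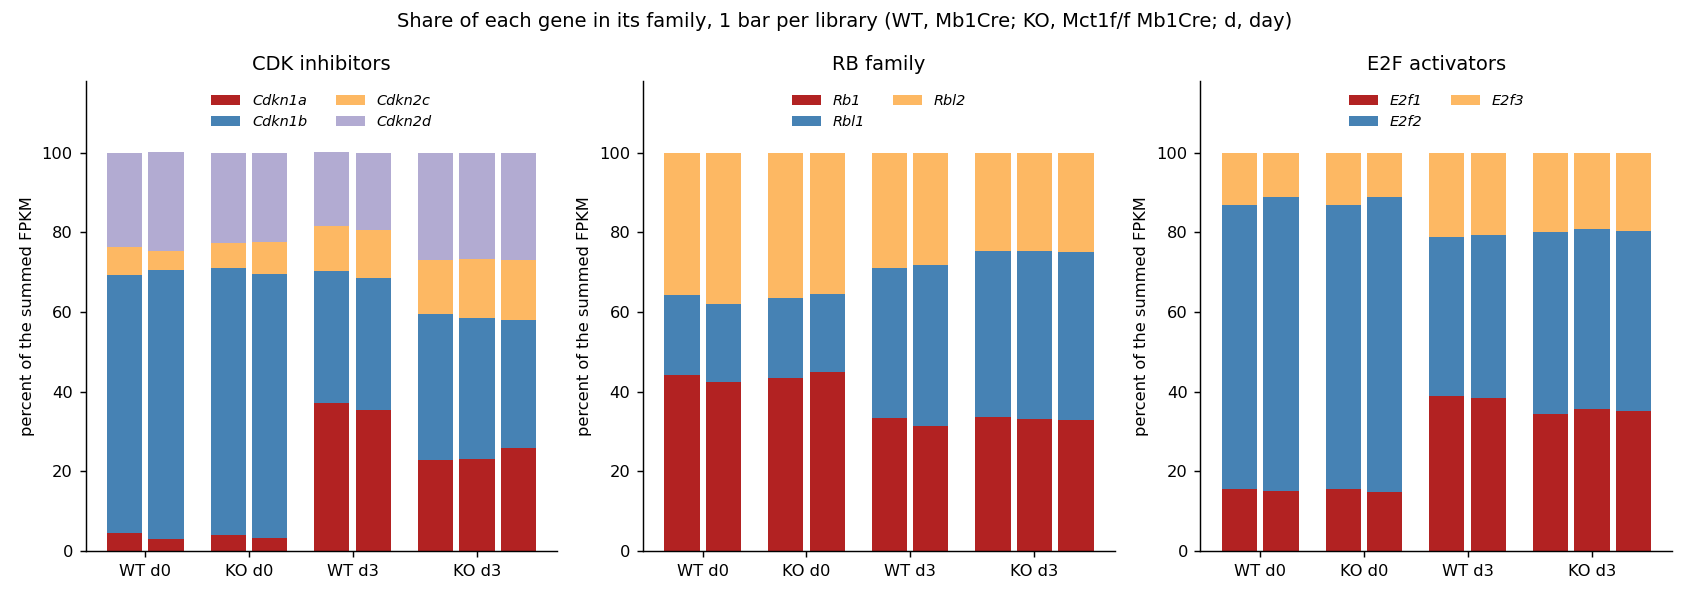
Share of each gene in the summed FPKM of its family (vertical axes, percent, from 0 to 100), with 1 bar for each of the 9 libraries. *Cdkn1a* takes 3.11% to 4.48% of the inhibitor bar in naive *Mb1*Cre libraries and 35.5% to 37.2% on day 3, *Rbl1* takes a larger and *E2f2* a smaller part of its family on day 3.

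Of the RB family, *Rb1* (chromosome 14, 73183673 to 73325822, reverse strand), the retinoblastoma protein that restrains the activator E2Fs, had 28.00 and 24.40 FPKM in naive and 14.27 and 14.90 FPKM in activated *Mb1*Cre B cells. The Mct1f/f Mb1Cre libraries held 25.28 and 27.84 FPKM when naive and 15.60, 15.02 and 14.88 FPKM when activated. The genotypes overlapped on both days. *Rb1* fell to 55.7% of its naive level in the control (log2 fold change -0.80, SE 0.07, limma adjusted p = 8.12e-07) and to 57.1% in Mct1f/f Mb1Cre B cells (log2 fold change -0.77, SE 0.06, limma adjusted p = 4.93e-07), or -0.70 on the log2 scale without the second Mct1f/f Mb1Cre library of day 0. Its exons share 488 bases with *Rcbtb2* on the opposite strand, which had a mean of 5.25 FPKM over the 9 libraries.

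*Rbl2* (chromosome 8, 91070057 to 91123844, forward strand) encodes p130, the RB protein of quiescent cells. It had 22.58 and 21.83 FPKM in naive and 12.40 and 13.45 FPKM in activated *Mb1*Cre B cells, and 21.19 and 22.02 FPKM and then 11.46, 11.25 and 11.31 FPKM in Mct1f/f Mb1Cre B cells. It moved as *Rb1* did, and on day 3 the 3 *Mct1*-deficient libraries were all below the control libraries. *Rbl2* fell to 58.2% in the control (log2 fold change -0.74, SE 0.05, limma adjusted p = 1.85e-07) and to 52.5% in Mct1f/f Mb1Cre B cells (log2 fold change -0.87, SE 0.05, limma adjusted p = 1.8e-08; -0.85 without the second day 0 library). An annotated gene on the opposite strand shares 892 exon bases with it.

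*Rbl1* (chromosome 2, 157145893 to 157204534, reverse strand) encodes p107, whose gene is itself an E2F target and carries the E2F word shown above. It had 12.59 and 11.25 FPKM in naive and 16.16 and 19.11 FPKM in activated *Mb1*Cre B cells, and 11.72 and 12.15 FPKM and then 19.38, 19.07 and 19.17 FPKM in Mct1f/f Mb1Cre B cells. Against the fall of the other RB genes it rose, 1.48-fold in the control (log2 fold change 0.53, SE 0.08, limma adjusted p = 5.95e-05) and 1.61-fold in Mct1f/f Mb1Cre B cells (log2 fold change 0.64, SE 0.07, limma adjusted p = 4.84e-06), where it was 0.67 without the second day 0 library. The control value lay close to the limit, and was 0.45 without the second *Mb1*Cre library of day 0 and 0.41 without the second of day 3. *Rbl1* was the least abundant of the RB genes in naive *Mb1*Cre cells, at 19.8% ± 0.253 of their summed FPKM (SD, n = 2), and the most abundant on day 3, at 39.0% ± 1.79. In Mct1f/f Mb1Cre B cells its share was 19.9% ± 0.387 (SD, n = 2) on day 0 and 42.0% ± 0.268 (SD, n = 3) on day 3.

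The E2F activators showed the same kind of exchange. *E2f1* (chromosome 2, 154559407 to 154569892, reverse strand), the main driver of S phase genes, had 6.43 and 6.77 FPKM in naive and 15.80 and 16.40 FPKM in activated *Mb1*Cre B cells. Its values in Mct1f/f Mb1Cre B cells were 6.24 and 6.57 FPKM when naive and 17.03, 16.98 and 17.63 FPKM when activated. Every library of day 3 was above every naive library, and it rose 2.44-fold in the control (log2 fold change 1.17, SE 0.06, limma adjusted p = 4.79e-09). It rose 2.69-fold in Mct1f/f Mb1Cre B cells (log2 fold change 1.30, SE 0.05, limma adjusted p = 8.9e-10), or by 1.33 on the log2 scale without the second day 0 library.

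*E2f3* (chromosome 13, 29906575 to 29986063, reverse strand), an activator with alternative promoters, had 5.43 and 4.97 FPKM in naive and 8.56 and 8.79 FPKM in activated *Mb1*Cre B cells, and 5.29 and 4.87 FPKM and then 9.85, 9.09 and 9.85 FPKM in Mct1f/f Mb1Cre B cells. The deposited value is 1 per gene, so the isoforms of its start sites were not separated. *E2f3* rose 1.67-fold in the control (log2 fold change 0.64, SE 0.07, limma adjusted p = 5.32e-06) and 1.89-fold in Mct1f/f Mb1Cre B cells (log2 fold change 0.80, SE 0.06, limma adjusted p = 3.36e-07), or 0.75 on the log2 scale without the second day 0 library.

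*E2f2* (chromosome 4, 136172394 to 136196057, forward strand), an activator abundant in lymphocytes, went the other way. It had 29.52 and 33.02 FPKM in naive and 16.12 and 17.47 FPKM in activated *Mb1*Cre B cells, and 28.83 and 32.92 FPKM and then 22.74, 21.44 and 22.76 FPKM in Mct1f/f Mb1Cre B cells. The naive groups overlapped, and on day 3 the *Mct1*-deficient libraries lay between the control libraries and the naive ones. It fell to 53.7% in the control (log2 fold change -0.86, SE 0.07, limma adjusted p = 7.65e-07). *Mct1*-deficient cells were at 72.3% of day 0 (log2 fold change -0.45, SE 0.07, limma adjusted p = 8.16e-05), short of the limit on the fold change. Its log2 fold change there was -0.36 without the second day 0 library and -0.54, past the limit, without the first. *E2f2* held 72.6% ± 1.72 of the summed FPKM of the 3 activators in naive and 40.4% ± 0.799 in activated control cells, where *E2f1* held 38.7% ± 0.416 (SD, n = 2). The summed level of the 3 activators was 41.4 to 44.8 FPKM in naive and 40.5 to 42.7 FPKM in activated *Mb1*Cre B cells, so in the control their total overlapped between the days. In Mct1f/f Mb1Cre B cells it was 40.36 to 44.36 FPKM on day 0 and 47.51 to 50.24 FPKM on day 3, higher on day 3 without overlap.

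The order of the 10 levels changed with activation. In naive *Mb1*Cre B cells *Cdkn1b* stood alone at 73.9 FPKM, followed by *E2f2* (31.3 FPKM), *Cdkn2d* (27.1 FPKM), *Rb1* (26.2 FPKM) and *Rbl2* (22.2 FPKM). Among these the ranges of *Cdkn2d* and *Rb1* overlapped. A lower group held *Rbl1* (11.9 FPKM), *E2f1* (6.60 FPKM), *Cdkn2c* (6.41 FPKM), *E2f3* (5.20 FPKM) and *Cdkn1a* (4.22 FPKM), and the ranges of *Cdkn2c* overlapped those of *E2f1* and *E2f3*. In activated *Mb1*Cre B cells *Cdkn1a* (35.0 FPKM) and *Cdkn1b* (31.9 FPKM) led without overlap. *Cdkn2d* (18.2 FPKM), *Rbl1* (17.6 FPKM) and *E2f2* (16.8 FPKM) followed, and each range overlapped that of the next gene down to *E2f1* (16.1 FPKM). *Rb1* (14.6 FPKM), *Rbl2* (12.9 FPKM), *Cdkn2c* (11.2 FPKM) and *E2f3* (8.68 FPKM) closed the order without overlap of neighbours.

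Between the genotypes on day 3, *Cdkn1a* was the 1 member of 10 that passed the test, and it was lower in *Mct1*-deficient B cells. Among all tested genes 0.887% were higher and 1.53% lower. With 18.0 ± 0.575 (SD, n = 3) against 35.0 ± 0.905 FPKM (SD, n = 2), *Cdkn1a* was at 51.4% of the control, and each of the 3 *Mct1*-deficient libraries lay far below both control libraries. Its log2 fold change was -0.92 (SE 0.09, limma adjusted p = 0.000126), and 40 of the 10823 tested genes had a more negative one. It did not reach a log2 limit of 1. It ranged from -0.96 to -0.80 over the alternatives, with adjusted p between 7.06e-06 and 0.00393.

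By the unadjusted p in limma, 5 of the 10 genes and 3142 of all 10823 differed on day 3. By the adjusted p alone, 4 of the 10 did, as did 15.2% of all genes. Besides *Cdkn1a* these were *Cdkn1b*, at 81.9% of the control (log2 fold change -0.28, SE 0.07, limma adjusted p = 0.0251), *Rbl2*, at 87.7% (log2 fold change -0.17, SE 0.05, limma adjusted p = 0.0406), and *E2f2*, at 133% (log2 fold change 0.39, SE 0.07, limma adjusted p = 0.00356). These 3 depended on the fit. Over the 20 alternatives that change the p, the adjusted p stayed under 0.05 in 13 for *Cdkn1b* (highest 0.131), in 6 for *Rbl2* (highest 0.286) and in 19 for *E2f2* (highest 0.0545, without the first *Mb1*Cre library of day 3). Under the replicate block *Cdkn1b* and *Rbl2* lost it. The difference in FPKM was -5.79 for *Cdkn1b*, -1.58 for *Rbl2* and 5.52 for *E2f2*. In 7 of the 10 genes (*Cdkn1a*, *Cdkn1b*, *Cdkn2d*, *Rbl2*, *E2f1*, *E2f2* and *E2f3*) the libraries of the genotypes did not overlap, beside 47.1% of all tested genes. *Cdkn2d*, *E2f1* and *E2f3* were higher in every *Mct1*-deficient library, by log2 fold changes of 0.14 (limma adjusted p = 0.107), 0.09 (0.281) and 0.13 (0.209). *Cdkn2c* (log2 fold change -0.04, limma adjusted p = 0.871), *Rb1* (0.05, 0.651) and *Rbl1* (0.12, 0.29) overlapped between the genotypes. The median log2 fold change was 0.07 over the 10 genes and -0.01 over all genes. Of the markers of other cells, *Lyz2* (log2 fold change 0.71) and *Adgre1* (0.68), genes of macrophages, were higher in the *Mct1*-deficient libraries, in which the myeloid markers summed to 23.3 to 26.6 FPKM against 15.8 to 17.4 FPKM in the control. The part of these cells in the differences of the 10 genes was not tested.

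**Figure D3:**
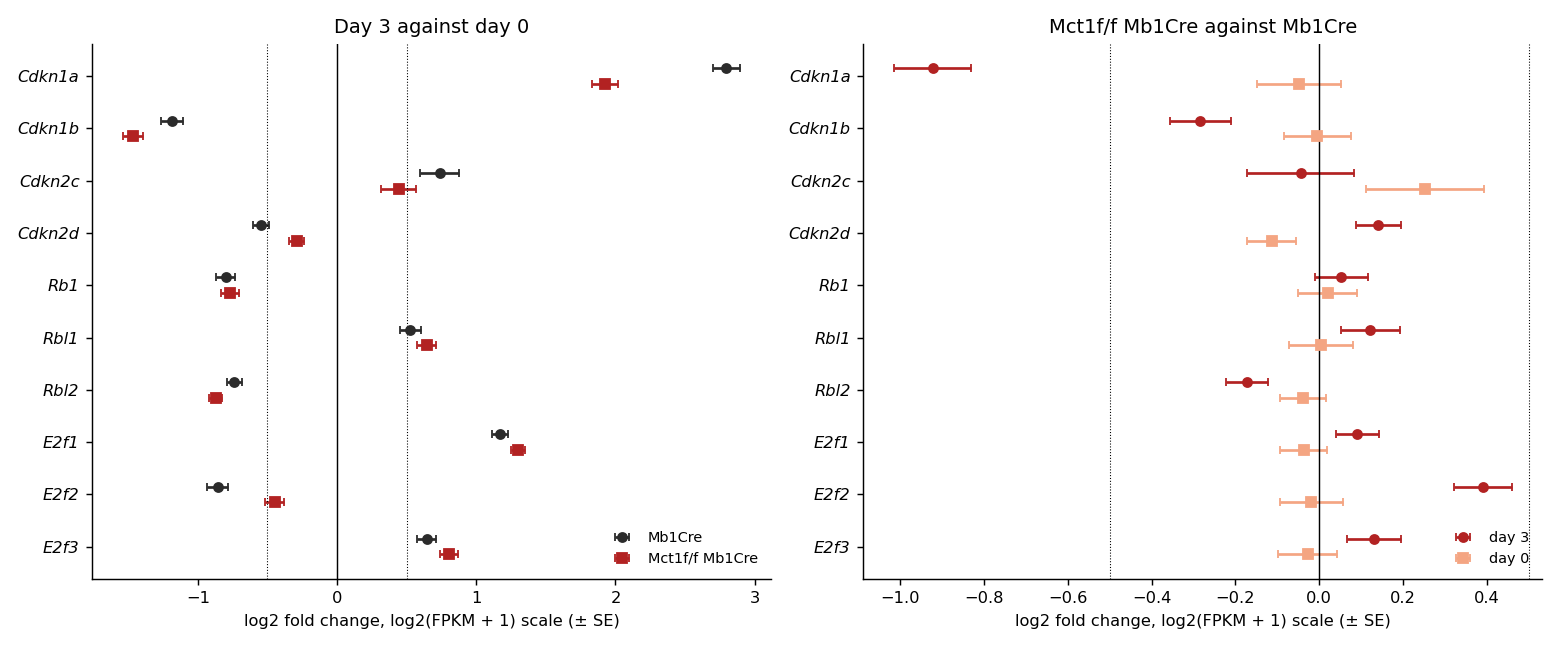
Log2 fold changes on the log2(FPKM + 1) scale with their standard errors from limma for the 10 genes. The left panel gives day 3 against day 0 in each genotype, and the right panel gives Mct1f/f Mb1Cre against *Mb1*Cre on each day, with dotted lines at the limit of 0.5. On the right *Cdkn1a* on day 3 (-0.92) is the only point beyond the limit.

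On day 0 none of the 10 genes passed the test, and 0 had an unadjusted p under 0.05 in limma, beside 1269 of all 10823 genes. Of all tested genes 0.277% passed. The Y-linked sum was 112.4 FPKM in 1 Mct1f/f Mb1Cre library and 2.23 to 3.29 FPKM in the control, so this comparison mixes genotype with sex. The log2 fold changes lay between -0.11 for *Cdkn2d* (limma adjusted p = 0.495) and 0.25 for *Cdkn2c* (limma adjusted p = 0.533). *Cdkn1a* was at 95.1% of the control (log2 fold change -0.05, SE 0.10, limma adjusted p = 0.895), *Cdkn1b* at 99.6% and *E2f2* at 98.7%. *Hba-a1*, a hemoglobin gene, was higher in the libraries labelled Mct1f/f Mb1Cre (log2 fold change 0.64, limma adjusted p = 0.0293), a call lost under the replicate block (limma adjusted p = 0.0549) and kept by the adjusted p in 6 of 20 alternatives. Its part in the values of the 10 genes was not tested. Since *Slc16a1* did not pass the test between these libraries (log2 fold change -0.05, limma adjusted p = 0.844), the comparison depends on their labels.

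The response to activation differed between the genotypes in *Cdkn1a*. The interaction of genotype and day was -0.87 on the log2 scale (SE 0.14, limma adjusted p = 0.00441), which is the rise of 1.92 in Mct1f/f Mb1Cre less the rise of 2.80 in *Mb1*Cre B cells. It was the 1 call among the 10 genes, in a comparison that called 1.02% of all genes higher and 2.22% lower. Neither did this value reach a limit of 1. For every gene the interaction mixes genotype with sex. On day 0 the Y-linked sum was 2.23 to 3.29 FPKM in *Mb1*Cre and 3.55 and 112.4 FPKM in Mct1f/f Mb1Cre libraries. On day 3 it was 74.0 to 95.0 FPKM in all libraries. Over the alternatives the interaction of *Cdkn1a* lay between -1.06 and -0.69, and it was -0.93 without the second Mct1f/f Mb1Cre library of day 0. That left 1 day 0 library of this genotype, with Y-linked transcripts, beside *Mb1*Cre libraries of day 0 low in them. In that fit genotype and sex on day 0 cannot be told apart. By the adjusted p alone *E2f2* also differed (0.41, SE 0.10, limma adjusted p = 0.0324), making 2 of 10 genes beside 9.42% of all genes. Over the alternatives the value of *E2f2* lay between 0.32 and 0.50. The highest was that without the second Mct1f/f Mb1Cre library of day 0, where genotype and sex on day 0 cannot be told apart. Its adjusted p stayed under 0.05 in 9 of 19 alternatives and reached 0.128. *Cdkn2d* (0.25, limma adjusted p = 0.0741) and *Cdkn1b* (-0.28, limma adjusted p = 0.136) had an unadjusted p under 0.05, making 4 of the 10 genes beside 2745 of all 10823. For the 6 other genes the interaction lay between -0.30 for *Cdkn2c* (limma adjusted p = 0.363) and 0.16 for *E2f3* (limma adjusted p = 0.329), and none had an unadjusted p under 0.05. Other measures moved with the interaction. All 8 proliferation markers had a negative one (median -0.37, beside -0.02 for all genes), and 6 of them had an adjusted p under 0.05, as had 5.61% of all genes in that direction. Of the markers of other cells, *Hba-a1* (-0.91), *Lyz2* (0.57) and *Adgre1* (0.51) were called, and the last pair lost the call under the replicate block (limma adjusted p = 0.111 and 0.0864). Their part in the interaction of *Cdkn1a* was not tested.

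The remaining CDK inhibitors were *Cdkn1c*, which was too low to be tested (0.09 to 0.30 FPKM), *Cdkn2a* and *Cdkn2b*. *Cdkn2a*, whose locus encodes p16 and p19ARF, had 0.45 and 0.12 FPKM in naive and 14.91 and 14.15 FPKM in activated *Mb1*Cre B cells. The Mct1f/f Mb1Cre libraries had 0.13 and 0.19 FPKM and then 4.21, 5.99 and 4.14 FPKM. Like *Cdkn1a*, it was low in all naive libraries and lower in each *Mct1*-deficient library of day 3 than in the control. It rose in both genotypes (log2 fold changes 3.61 and 2.30) and was at 32.9% of the control on day 3 (log2 fold change -1.44, SE 0.14, limma adjusted p = 0.000126), with an interaction of -1.30 (limma adjusted p = 0.00525). The interaction rests on naive values of at most 0.45 FPKM. With a pseudocount of 0.1 it was -1.17 and lost the call (limma adjusted p = 0.157), and its adjusted p stayed under 0.05 in 17 of 18 alternatives. *Cdkn2b*, which encodes p15, rose by 1.39 in *Mb1*Cre and 1.31 in Mct1f/f Mb1Cre B cells, and on day 3 its log2 fold change between the genotypes was -0.33 (limma adjusted p = 0.101). The deposited value of *Cdkn2a* is 1 per gene and does not separate the transcripts of p16 and p19ARF.

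Among the 8 RB kinase genes, the cyclins and CDKs that phosphorylate RB proteins, 4 rose and 2 fell in *Mb1*Cre B cells. *Ccnd1*, a D-type cyclin, fell by 3.72 on the log2 scale, whereas *Ccnd2*, the D-type cyclin of activated B cells, rose by 2.16 and *Ccne2*, a partner of CDK2, rose by 1.89. The same numbers passed in Mct1f/f Mb1Cre B cells, and 0 of the 8 were called between the genotypes on either day or in the interaction. Of the 7 other E2F and DP factors, 3 rose and 1 fell in the control (4 and 1 in Mct1f/f Mb1Cre B cells). *Tfdp1*, the DNA-binding partner of E2Fs, rose by 2.45, the repressor *E2f8* by 2.03 and the repressor *E2f7* by 1.00. *Tfdp1* went from 20.56 and 18.45 FPKM to 109.01 and 112.16 FPKM in *Mb1*Cre B cells. Of the 7 MuvB proteins and partners, 4 rose in the control and 3 in Mct1f/f Mb1Cre B cells, led by *Mybl2* (4.002) and *Foxm1* (1.89), the partners of MuvB in S phase and in mitosis, and *Rbbp4* (0.72). None of the 14 genes of these E2F and MuvB lists was called between the genotypes on day 3 or in the interaction.

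The E2F target genes, which act in DNA replication and nucleotide synthesis, rose together. In each genotype 21 of 22 passed the test upward and *Cdt1* did not, with a median log2 fold change of 2.04 in *Mb1*Cre and 1.81 in Mct1f/f Mb1Cre B cells. The strongest in the control were *Rrm2* (3.01), *Ccna2* (2.97) and *Cdc45* (2.91), genes of ribonucleotide reduction, S phase cyclin A and the replicative helicase. On day 3, 1 of the 22 was called between the genotypes. *Tyms*, thymidylate synthase, had 32.29 and 30.26 FPKM in the control and 20.83, 20.67 and 20.60 FPKM in *Mct1*-deficient cells (log2 fold change -0.57, limma adjusted p = 0.000131). The median of the list on day 3 was -0.01, the same as that of all genes to 2 decimals. In the interaction *Tyms* (-0.78, limma adjusted p = 0.000637) and *Gins1* (-0.62, limma adjusted p = 0.00741), a subunit of the replicative helicase, were called. The interaction was negative in 18 of the 22 (median -0.08), and 6 of them had an adjusted p under 0.05 in that direction. All 8 proliferation markers rose in both genotypes, from summed levels of 61.7 to 80.3 FPKM on day 0 to 513 to 575 FPKM on day 3. None of the 8 was called on day 3 between the genotypes, and *Bub1*, a mitotic checkpoint kinase, was called in the interaction (-0.58, limma adjusted p = 0.00682), where all 8 were negative. The proliferation markers summed to 553 to 575 FPKM in the control and 513 to 543 FPKM in *Mct1*-deficient cells on day 3, and to 61.7 to 63.9 and 71.7 to 80.3 FPKM on day 0.

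*Cdkn1a* is a p53 target, and 12 of the 13 listed p53 pathway genes could be tested. In each genotype 6 rose and 4 fell with activation. In the control the largest changes were those of *Sesn1* (-3.11) and *Sesn2* (2.30), stress-induced regulators of mTORC1, and of *Phlda3* (3.06), an inhibitor of AKT. On day 3 *Phlda3* was called lower in *Mct1*-deficient cells, with 8.30, 9.31 and 10.05 FPKM against 13.84 and 14.89 FPKM (log2 fold change -0.59, limma adjusted p = 0.0415). That call was lost under the replicate block (limma adjusted p = 0.0776) and without any 1 of the 5 libraries of day 3 (limma adjusted p of 0.0691 to 0.203), and its adjusted p stayed under 0.05 in 11 of 20 alternatives. By the adjusted p alone 6 of the 12 were lower and 0 higher, beside 9.21% of all genes lower, and the median of the list was -0.22 beside -0.01 for all genes. None of the 12 was called in the interaction.

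Of the 10 genes of p27 turnover and FOXO-dependent quiescence, 1 rose and 5 fell in each genotype. *Cks1b*, which directs p27 to its ubiquitin ligase, rose by 2.73 in the control, and *Klf2* and *Foxo1*, transcription factors of resting lymphocytes, fell by 3.42 and 1.47 on the log2 scale. *Klf2* had 47.54 and 47.96 FPKM in activated control cells and 84.25, 89.80 and 89.89 FPKM in activated *Mct1*-deficient cells, where its fall was smaller. It was called higher in the latter on day 3 (log2 fold change 0.87, limma adjusted p = 4.15e-05) and in the interaction (1.16, limma adjusted p = 0.000364). *Skp2*, the p27 ubiquitin ligase, had log2 fold changes of 0.06 in *Mb1*Cre (limma adjusted p = 0.51) and -0.09 in Mct1f/f Mb1Cre B cells (limma adjusted p = 0.267).

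**Figure D4:**
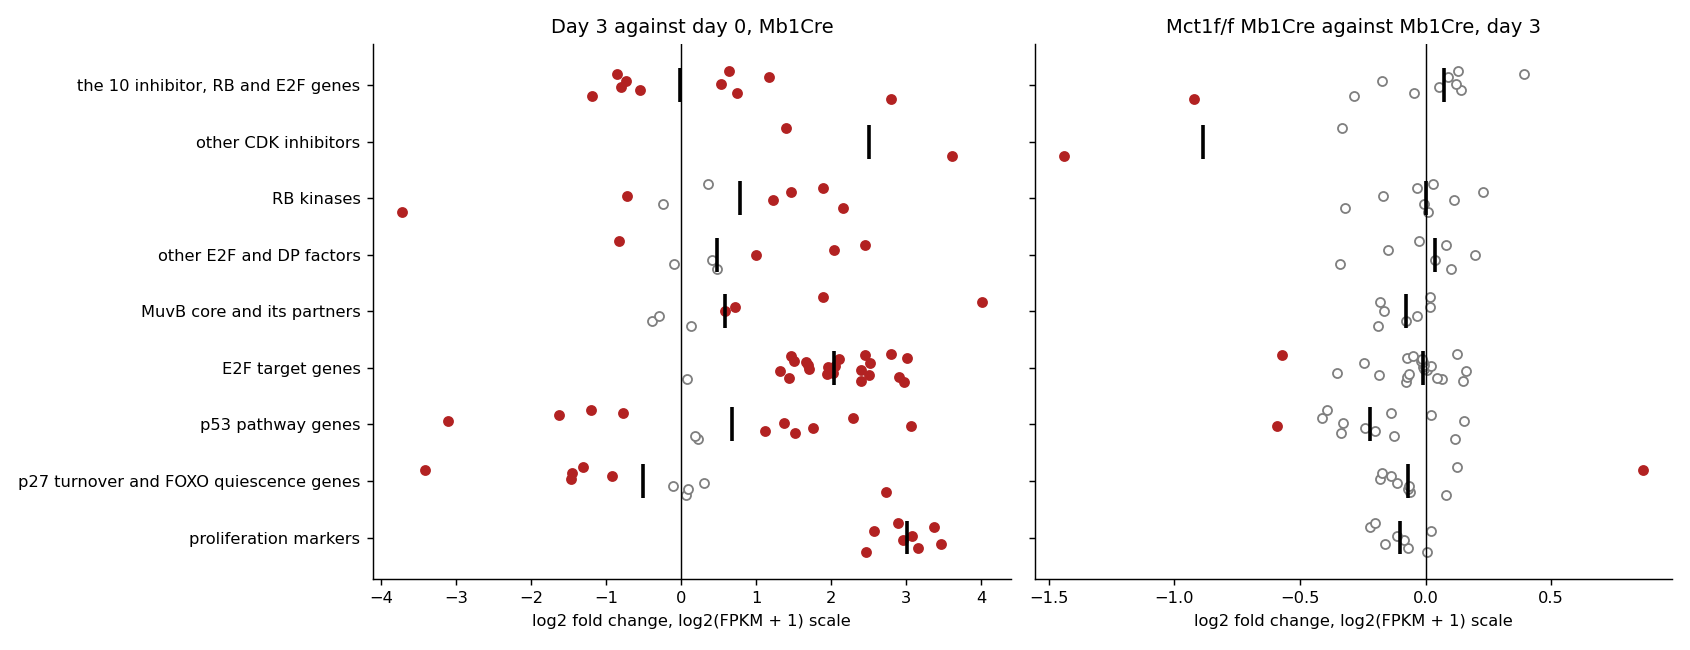
Log2 fold changes on the log2(FPKM + 1) scale of the 10 genes and of the lists around them, for day 3 against day 0 in *Mb1*Cre B cells (left) and Mct1f/f Mb1Cre against *Mb1*Cre on day 3 (right). Points are genes, filled where they passed the test, and vertical lines are list medians. On the left 21 of 22 E2F target genes are filled to the right of 0, and on the right the filled points are *Cdkn1a*, *Cdkn2a*, *Tyms*, *Phlda3* and *Klf2*.

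For each of the 10 genes the tested gene outside the set with the closest pattern was found by Pearson's r on the log2 scale over the 9 libraries, as a description. The day dominates these values, and between 431 genes (*Cdkn2c*) and 4310 genes (*Rb1*) had an r above 0.9. The closest genes were *Focad* for *Cdkn1a* (0.9981), *Rab40c* for *Cdkn1b* (0.9986), *Wdr31* for *Cdkn2c* (0.9698) and *C2cd2l* for *Cdkn2d* (0.9938). For the RB family they were *Gnaq* for *Rb1* (0.9984), *Rpp38* for *Rbl1* (0.9935) and *Ifnar1* for *Rbl2* (0.9983). For the E2F activators they were *Eef2* for *E2f1* (0.9995), *Dse* for *E2f2* (0.9916) and *Acaca* for *E2f3* (0.9978).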

How the data were processed

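The authors deposited expression values in FPKM (fragments counted for each kilobase of a transcript in every 1000000 that mapped), 1 for each gene in each library, rounded to 2 decimals. The submitters' processing notes name Bowtie2 and the build GRCm38 (mm10), and the annotation and the counting tool are not given in the sources used here. The low values showed no common step of whole reads, so the depth and counting error of each value are unknown. Groups follow the sample labels. These do not tie libraries to mice, so p-values measure the spread between these libraries. No pair of libraries was a copy (at most 3.85% of genes shared a value above 0), and libraries with the same number did not deviate together.

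From these values log2(FPKM + 1) was fitted with limma 3.58.1 in R 4.3.3 for the 10823 genes whose mean reached 1 FPKM, with 1 mean for each of the 4 groups and a variance trend. P-values were adjusted by Benjamini-Hochberg over all these genes, and a call needed an adjusted p below 0.05 as well as a log2 fold change beyond 0.5 in either direction. The comparisons were activation in each genotype, genotype on each day and their interaction. The 2 activation comparisons share no library with each other. Each of them shares libraries with both genotype comparisons, and all of these share libraries with the interaction. All comparisons share 1 estimate of the spread. Tables and figures were made with pandas 2.3.3 and matplotlib 3.10.9 in Python 3.11.15. The fit was tested on simulated data with normal noise, in which it recovered 99% of genes changed by 1 on the log2 scale between the genotypes on day 3. Only genes of higher level were changed, so the recovery of low genes and of changes under 1 was not tried. The 10 genes and the 14 further gene lists were chosen with earlier results of these data known. All 10 genes were named, and of each other list up to 3 called genes, by the size of their change in *Mb1*Cre B cells, plus those called between the genotypes on day 3 or in the interaction. *Cdt1* and *Skp2* were named after their values were seen. Alternatives were pseudocounts of 0.1 and 5, no filter or a mean of 5 FPKM, 3 scalings (equal totals, median of ratios, quantile), a fit of only the groups compared, a replicate block, a fit with no trend, no log2 limit or one of 1, and leaving out single libraries.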

Additional observations from a re-analysis of the deposited data

Results flagged for a closer look

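*Cdkn1a*, the gene of p21, was the 1 gene of the 10 whose response to activation differed between the genotypes by both the adjusted p and the limit of 0.5, in a test of the difference itself. The rise in Mct1f/f Mb1Cre B cells was smaller by 0.87 on the log2 scale (interaction -0.87, SE 0.14, limma adjusted p = 0.00441). The 3 *Mct1*-deficient libraries of day 3 lay between 17.50 and 18.63 FPKM and the control libraries at 34.36 and 35.64 FPKM, while all 4 naive libraries lay between 3.56 and 4.88 FPKM. Over the alternatives the value lay between -1.06 and -0.69, with adjusted p between 0.000393 and 0.0295. The interaction mixes genotype with sex. Y-linked transcripts were low in the *Mb1*Cre libraries of day 0, high in 1 Mct1f/f Mb1Cre library of day 0 and high in all libraries of day 3. By the adjusted p alone *E2f2* also differed (0.41, limma adjusted p = 0.0324). Over the alternatives the value of *E2f2* lay between 0.32 and 0.50. It was 0.50 without the second Mct1f/f Mb1Cre library of day 0, which left 1 library in that group. In that fit genotype and sex on day 0 cannot be told apart. Groups of 2 or 3 libraries were too small to look for single libraries far from the others.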

How the results depend on the processing

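The number of the 10 genes called depended on the limit on the fold change. With a log2 limit of 1 it was 3 in each activation comparison and 0 on day 3 and in the interaction, and with no limit 4 on day 3 and 2 in the interaction. Leaving out 1 library gave 8 to 10 and 7 to 8 genes in activation, 1 on day 3, 0 on day 0 and 1 to 2 in the interaction. Signs were the same in all alternatives in both activation comparisons and on day 3. Scaling to equal totals moved the activation median of all genes from -0.12 to -0.31 in *Mb1*Cre and from -0.14 to -0.30 in Mct1f/f Mb1Cre B cells and, of the 10 genes, called 3 higher and 5 lower and 3 higher and 4 lower, respectively, since *Rbl1* and *E2f3* in the control and *Rbl1* in *Mct1*-deficient cells lost the limit and *E2f2* in the latter passed it. Median-of-ratios scaling gave medians of 0.06 in both and quantile normalization 0.02 and 0.03. The share of higher genes among all called was 42.9% and 41.4% as deposited, 32.0% and 31.7% with equal totals, and 55.4% and 54.9% with median-of-ratios scaling, and 51.7% in Mct1f/f Mb1Cre B cells with quantile normalization. Day 0 differences near 0 changed sign: *Rbl1* was -0.0078 with equal totals and -0.0030 with quantile normalization, and *Cdkn1b* was 0.0076 with median-of-ratios scaling. Without 1 library, day 0 values ranged from -0.23 to 0.14 for *Cdkn1a*, -0.066 to 0.057 for *Cdkn1b*, -0.075 to 0.12 for *Rb1*, -0.071 to 0.078 for *Rbl1*, -0.11 to 0.074 for *E2f2* and -0.082 to 0.025 for *E2f3*, and the interaction of *Rb1* from -0.063 to 0.13. The cause of these changes was not tested.

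Over all genes, those called on day 3 (262) were 421 with a pseudocount of 0.1, 120 with 5, 54 with a log2 limit of 1 and 1650 with none. Those of the interaction (350) were 156 with a pseudocount of 5, 56 with a limit of 1 and 1020 with none. The 30 genes of day 0 were 2 when only those libraries entered the fit, 13 without the filter, and 102 and 67 without the second *Mb1*Cre or Mct1f/f Mb1Cre library. With a limit of 1, activation called 3191 and 2994 genes, and 9258 with none in Mct1f/f Mb1Cre B cells. Under a replicate block, 10, 7, 1, 0 and 1 of the 10 genes were called in activation (*Mb1*Cre, Mct1f/f Mb1Cre), on day 3, on day 0 and in the interaction, as without it. Among the other named genes called between the genotypes or in the interaction, it lost the calls of *Phlda3* on day 3, *Hba-a1* on day 0, and *Lyz2* and *Adgre1* in the interaction. Libraries sharing a number had correlations of deviations between -0.122 and 0.0867, so no pairing by number was seen. In a group of 2 libraries the deviations mirror each other, so this check cannot exclude pairing. A crossed block of the control libraries, chosen after seeing the data, called 10, 7, 1, 0 and 1 genes. Without read counts, the precision of low values such as those of naive *Cdkn1a* is unknown.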
